A study of Mus musculus with 57 samples.

Results

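The data concern 8 genes that glucocorticoids are known to induce, measured across the day in wild-type mouse visual cortex. They are Sgk1, Fkbp5, Tsc22d3, Plin4, Ddit4, Errfi1, Zbtb16 and Nfkbia, taken as a list of gene rows from a table of 24394 named genes. The list was chosen with earlier results of these data known. Shares of all genes set beside its counts are therefore descriptive. All 8 were in the table and all 8 had a mean of at least 10 normalised counts, the level above which 10526 genes were tested. RNA was profiled by MARS-Seq, a method that counts tags near transcript 3′ ends, in 57 libraries. In the 27 light libraries, mice kept in 12 h of light and 12 h of darkness had their usual light on the day of collection, and were sampled at 4 daytime points, ZT1, ZT3, ZT7.5 and ZT11.5, and in the night at ZT13, ZT15 and ZT18, where ZT counts the hours from lights-on. In the 30 dark libraries, mice from the same cycle had no light on that last day, and were sampled at the same times and at ZT0. Groups held 4 libraries, except Light ZT18, Dark ZT1 and Dark ZT13 with 3. All groups shared the genotype, tissue and housing, so that after ZT12 both arms were in darkness and differed in the day before it. The sources used here give no age. The labels speak of biological replicates without saying whether each is 1 animal, and the p-values therefore reflect only how far these samples varied.

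Glucocorticoids are adrenal steroids that bind a receptor held in the cytoplasm by chaperones. The bound receptor enters the nucleus and acts on target genes through a palindromic DNA element. In nocturnal rodents the hormone follows a daily cycle that climbs towards the onset of the dark phase, and it also rises with stress. No hormone was measured here, and several of the 8 genes also respond to other signals.

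Among the 8 genes, Fkbp5 encodes a co-chaperone that lowers the affinity of the receptor for its ligand. Tsc22d3 encodes GILZ and Nfkbia encodes an inhibitor of NF-kappaB, both associated with anti-inflammatory actions of the hormone. Sgk1 is a kinase that regulates ion transport and survival. Ddit4 inhibits mTORC1 signalling, Errfi1 inhibits the EGF receptor, Plin4 coats lipid droplets and Zbtb16 is a zinc finger transcription factor. All 8 are protein-coding genes. In GRCm38, Sgk1 lies on chromosome 10 (21882184 to 21999903, plus strand), Fkbp5 on 17 (28399094 to 28517527, minus), Tsc22d3 on X (140539528 to 140600659, minus) and Plin4 on 17 (56100591 to 56109803, minus). Ddit4 lies on chromosome 10 (59949669 to 59951834, minus), Errfi1 on 4 (150853919 to 150868892, plus), Zbtb16 on 9 (48654297 to 48836222, minus) and Nfkbia on 12 (55489410 to 55492647, minus).

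Depth, taken from the reads recovered from the deposited values, ran from 1.64 to 4.31 M per library, with medians of 2.76 M in light and 2.75 M in dark libraries. Markers of excitatory neurons, 5 genes including Slc17a7 and Camk2a, summed to 7553 to 12840 normalised counts in every library. Markers of choroid plexus, 4 genes that neighbouring tissue can bring, ran from 61.4 to 20870. Blood markers, 3 haemoglobin genes, summed to at most 0.605. Deviations from the group means tended to be shared by replicates 1 and 2, and by 3 and 4, of different groups, with a mean correlation across genes of 0.107 within and -0.106 across these pairs of numbers in the light arm and 0.0384 and -0.0384 in the dark arm. Xist, which coats the inactive X, exceeded 20 in 27 of 27 libraries numbered 3 or 4 and in 2 of 30 numbered 1 or 2. Results were therefore also computed with a term for these pairs of numbers. The term follows the numbers and not Xist itself. Replicates 1 and 2 of Light ZT13 were the 2 exceptions, with Xist at 64.72 and 69.26. That was the only group with all libraries above 20, so its comparisons differ in Xist as well as in time or light. In tissue RNA, fewer cells of a type and less RNA per cell cannot be told apart.

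Sequences around annotated starts were taken from RefSeq (GRCm38.p6), from 250 bases before to 50 after each start, and 15 such windows matched 7 of the 8 genes. The exception was Zbtb16. The windows were searched on both strands for the full steroid element, AGAACA and TGTTCT separated by any 3 bases, for the single arm AGAACA, for the E-box CACGTG bound by clock factors, and for the cAMP element TGACGTCA and its core TGACG, which lies within it. The full steroid element stood in 3 of 32851 windows (0.00913%), 1 of which belongs to Sgk1. In that window (chr10:21993640-21993939, plus strand) the match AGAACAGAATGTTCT spans 21993701 to 21993715, 189 bases before the start, and an E-box lies 246 bases before it. The window is shown because it holds the full steroid element.
Sgk1: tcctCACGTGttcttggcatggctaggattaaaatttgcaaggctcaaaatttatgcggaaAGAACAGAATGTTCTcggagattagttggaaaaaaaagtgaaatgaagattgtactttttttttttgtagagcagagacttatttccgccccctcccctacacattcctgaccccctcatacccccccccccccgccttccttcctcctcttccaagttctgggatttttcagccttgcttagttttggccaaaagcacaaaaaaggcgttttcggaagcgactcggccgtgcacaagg
An E-box also lies 169 bases before the start of Fkbp5 (chr17:28486100-28486399, minus strand). The E-box was found in 7.15% of all windows and in 2 of these 15.
Fkbp5: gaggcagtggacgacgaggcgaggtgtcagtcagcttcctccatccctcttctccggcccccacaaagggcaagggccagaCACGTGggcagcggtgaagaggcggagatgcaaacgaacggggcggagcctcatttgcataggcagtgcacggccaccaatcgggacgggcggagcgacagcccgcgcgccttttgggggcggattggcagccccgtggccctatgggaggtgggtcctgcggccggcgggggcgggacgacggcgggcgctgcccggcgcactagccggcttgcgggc
A cAMP element lies 51 bases before 1 start of Errfi1 (chr4:150854820-150855119, plus strand). This element was in 1.79% of all windows.
Errfi1: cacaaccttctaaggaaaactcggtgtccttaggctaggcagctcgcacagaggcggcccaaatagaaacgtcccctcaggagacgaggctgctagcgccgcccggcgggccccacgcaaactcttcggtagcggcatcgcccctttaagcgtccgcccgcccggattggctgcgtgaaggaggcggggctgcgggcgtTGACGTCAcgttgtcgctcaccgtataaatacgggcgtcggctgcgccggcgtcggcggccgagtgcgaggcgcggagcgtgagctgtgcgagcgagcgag
Capitals mark the elements named. The single steroid arm stood in 4 of the 15 windows, of Sgk1 and Tsc22d3, against 19% of all windows. The cAMP core stood in 3 of the 15, of Sgk1, Tsc22d3 and Errfi1, against 20.8% of all windows. A match is a description of these letters only. Tags from 3′ ends do not tell which start a transcript came from, and elements farther away were not searched.

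The first question was whether the genes changed over the day within each arm. Sgk1 is given first. In the dark arm its normalised counts were 145.8, 202.6, 174.9 and 162.5 at ZT0, 176.1, 257.3 and 205.5 at ZT1, 213.4, 225.5, 174.1 and 218.1 at ZT3, and 254.2, 192.8, 189.1 and 185.4 at ZT7.5. They were 429.7, 422.3, 527.0 and 612.3 at ZT11.5, 508.3, 462.3 and 346.9 at ZT13, 235.6, 224.4, 335.0 and 409.5 at ZT15, and 163.6, 150.8, 182.3 and 176.1 at ZT18. Every library of ZT11.5 and of ZT13 stood above every library of ZT0 to ZT7.5 and of ZT18. In the light arm Sgk1 was 217.6, 201.6, 280.6 and 245.5 at ZT1, 201.1, 181.6, 159.6 and 213.7 at ZT3, and 118.0, 192.9, 292.6 and 275.2 at ZT7.5. Light values were 231.2, 240.2, 267.6 and 386.6 at ZT11.5, 507.7, 569.6, 172.5 and 204.9 at ZT13, 153.4, 227.8, 263.4 and 268.6 at ZT15, and 182.0, 272.3 and 286.3 at ZT18. Only 2 light libraries, both of ZT13, reached the level of the Dark ZT11.5 libraries, and neighbouring light groups overlapped.

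**Figure D1:**
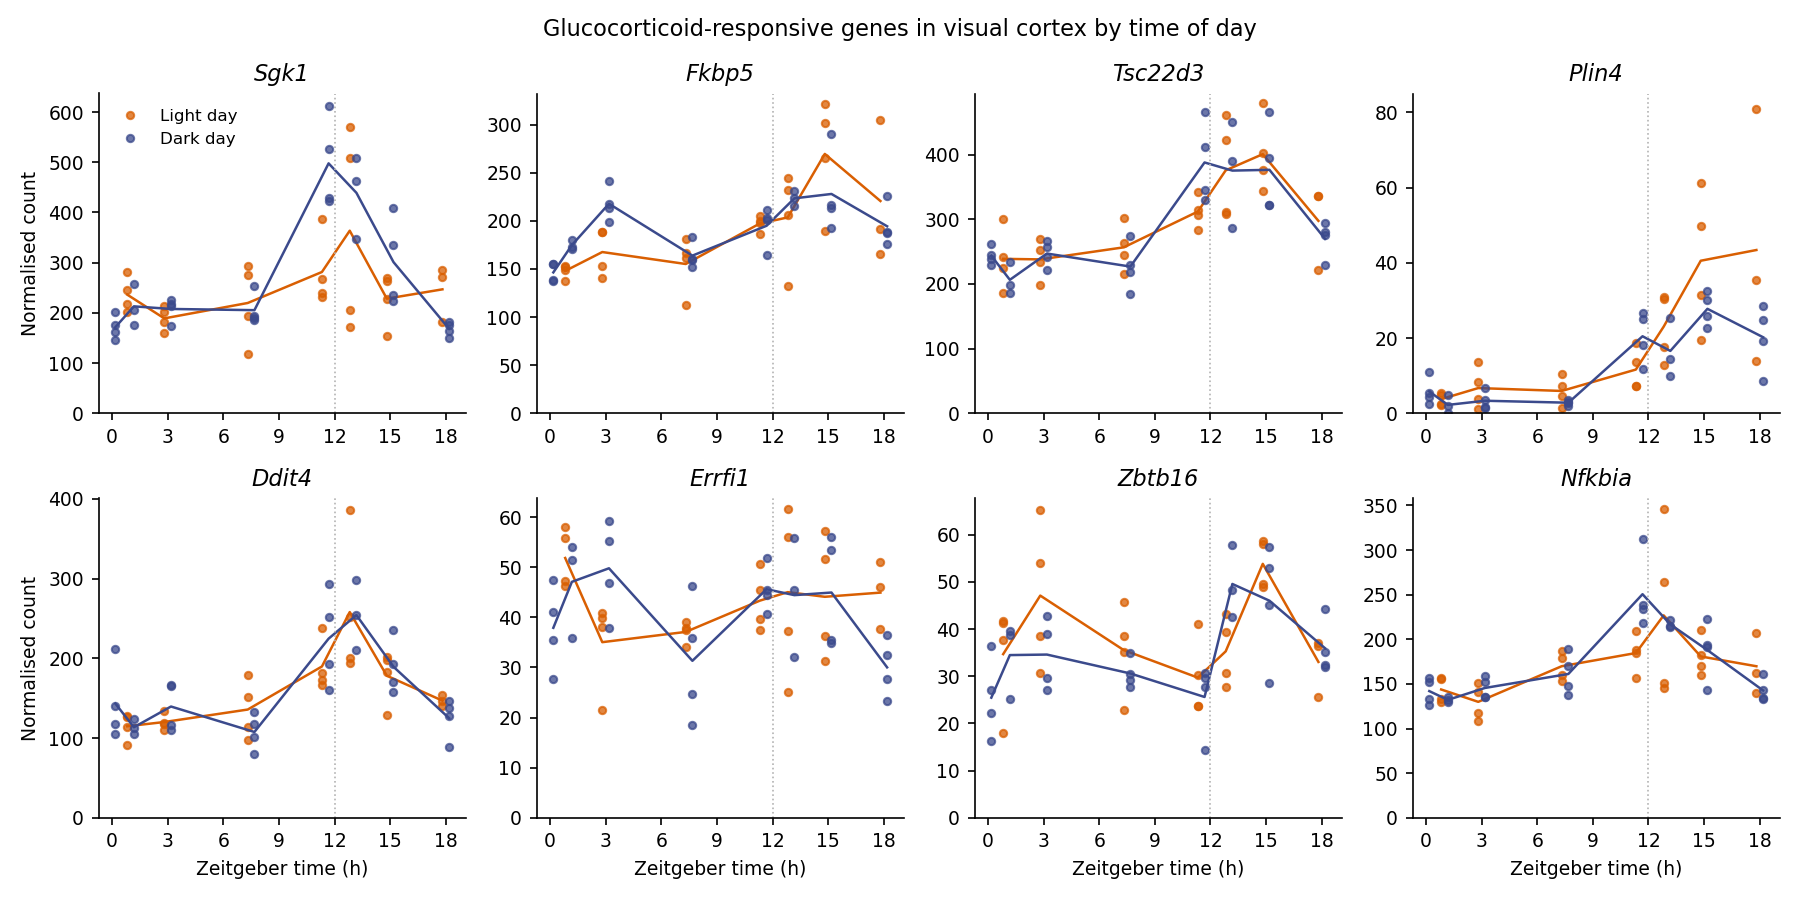
Normalised counts (y, from 0) of the 8 genes against Zeitgeber time in hours (x). Points are libraries, lines join group means, light-day libraries are orange and dark-day libraries blue, shifted slightly apart, and the dotted line marks ZT12, the usual lights-off. Sgk1 in the dark arm is between 422.3 and 612.3 at ZT11.5, and Plin4 stays at or below 13.58 until ZT7.5 in both arms.

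Over the 7 light times, 5 of the 8 genes changed, against 3.81% of all genes tested, by limma's moderated F test with p-values adjusted over the 10526 genes. They were Plin4 (adjusted p = 1.1e-05), Tsc22d3 (0.00055), Ddit4 (0.00087), Fkbp5 (0.0014) and Nfkbia (0.038). Over the 8 dark times, 6 of the 8 changed, against 6.52% of all genes: Plin4 (adjusted p = 2.1e-06), Sgk1 (1.2e-05), Tsc22d3 (1.6e-05), Ddit4 (9.3e-05), Nfkbia (0.00039) and Fkbp5 (0.026). Sgk1 did not pass over the light day (adjusted p = 0.29). Errfi1 (adjusted p = 0.57 in light and 0.11 in dark) and Zbtb16 (0.16 in light and 0.052 in dark) passed in neither arm by limma. Over the dark day Zbtb16 passed by edgeR (adjusted p = 0.0433) and DESeq2 (0.016), in a fit to the dark groups alone (0.0444) and with a replicate block (0.0319), while without the libraries under 2 M reads it was at 0.256. The call of Fkbp5 over the dark day ended without replicate 2 (0.0576) or 4 (0.0529) of Dark ZT0, without the libraries under 2 M reads (0.0778) and with no filter on low values (0.0509). An effect of light that differed between times was called for 0 of the 8 by limma, edgeR and DESeq2, against 0.181% of all genes by limma, where 723 had an unadjusted p under 0.05. Sgk1 came nearest (adjusted p = 0.55). That a gene passed in 1 arm alone is thus not shown to be a difference between the arms.

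Plin4 had the widest range of the 8. Its highest group mean, Light ZT18, was 19.6 times the lowest, Dark ZT1. Light libraries held 2.482, 2.278, 4.755 and 5.507 at ZT1, 3.853, 1.172, 8.187 and 13.58 at ZT3, and 4.538, 1.519, 10.4 and 7.271 at ZT7.5. Light values were then 7.125, 7.142, 13.65 and 18.57 at ZT11.5, 17.72, 31.05, 12.96 and 30.4 at ZT13, 19.55, 49.79, 31.55 and 61.36 at ZT15, and 35.42, 13.83 and 80.99 at ZT18. Group means were higher at ZT13 to ZT18 than before, with a wide spread, and single libraries of ZT3 and ZT11.5 reached the lowest night libraries. In the dark arm Plin4 was 2.457, 5.414, 10.98 and 4.259 at ZT0, 1.815, 4.839 and 0 at ZT1, 3.617, 6.793, 1.547 and 1.346 at ZT3, and 1.941, 2.69, 3.083 and 3.498 at ZT7.5. It was 18.26, 11.87, 25.09 and 26.67 at ZT11.5, 25.36, 9.927 and 14.45 at ZT13, 22.54, 25.93, 32.59 and 30.03 at ZT15, and 19.16, 8.583, 24.71 and 28.44 at ZT18. Every dark library of ZT11.5 and ZT15 exceeded every dark library from ZT0 to ZT7.5. These values rest on 0 to 71 reads per library, with a median of 9, so counting error is large, and log2 differences computed with 1 added understate the change.

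Tsc22d3 had a shallower course. In light its group means were 238.9 ± 47.7 at ZT1, 238.1 ± 30.4 at ZT3, 256.7 ± 36.3 at ZT7.5, 312.1 ± 24.1 at ZT11.5, 375.8 ± 78.3 at ZT13, 400.9 ± 57.8 at ZT15 and 297.7 ± 65.9 at ZT18 (SD, with the group sizes given above). In the dark they were 243.7 ± 13.6 at ZT0, 206.5 ± 25.2 at ZT1, 247.1 ± 19.9 at ZT3, 226.9 ± 37 at ZT7.5, 388.1 ± 63.1 at ZT11.5, 375.5 ± 83.4 at ZT13, 376.7 ± 69.1 at ZT15 and 269.8 ± 28.4 at ZT18. The highest group mean, Light ZT15, was 1.94 times the lowest, Dark ZT1, and every Light ZT15 library lay above every library of ZT1 to ZT11.5 in light.

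Ddit4 had its highest means just after the usual lights-off. In light they were 114.8 ± 16.9 at ZT1, 120.1 ± 10 at ZT3, 135.8 ± 36.8 at ZT7.5, 189.8 ± 32.4 at ZT11.5, 258 ± 89 at ZT13, 178.2 ± 33.5 at ZT15 and 146.9 ± 6.99 at ZT18 (SD, with the group sizes given above). In the dark they were 143.3 ± 47.6 at ZT0, 113.6 ± 9.4 at ZT1, 139.6 ± 30.4 at ZT3, 107.6 ± 22.3 at ZT7.5, 224.7 ± 59.4 at ZT11.5, 254.3 ± 43.7 at ZT13, 189.4 ± 34.5 at ZT15 and 124.9 ± 25.5 at ZT18. Light ZT13 was 2.4 times Dark ZT7.5, the lowest group, and its libraries ran from 193.6 to 385.7.

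Nfkbia had its highest mean in Dark ZT11.5, 1.93 times that of Light ZT3. Light libraries were 117.9, 109.0, 151.5 and 141.3 at ZT3, 156.7, 187.5, 184.8 and 209.4 at ZT11.5, 264.3, 346.3, 145.8 and 150.7 at ZT13, and 140.0, 207.4 and 162.0 at ZT18. Dark libraries were 135.6, 135.9, 151.6 and 158.8 at ZT3, 233.6, 218.5, 311.9 and 238.0 at ZT11.5, 215.1, 221.2 and 213.6 at ZT13, and 132.6, 143.5, 160.6 and 134.1 at ZT18. The Dark ZT11.5 libraries stood clear of Dark ZT3 and ZT18, 2 of the 4 Light ZT13 libraries were far above the other 2, and the Light ZT11.5 libraries stood clear of Light ZT3 but overlapped with Light ZT18.

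Fkbp5, the co-chaperone of the receptor, had its highest means at ZT15. In light they were 147.9 ± 7.22 at ZT1, 167.5 ± 24.5 at ZT3, 155.1 ± 29.7 at ZT7.5, 197.2 ± 7.84 at ZT11.5, 203.5 ± 50.2 at ZT13, 269.4 ± 58.3 at ZT15 and 220.5 ± 73.9 at ZT18 (SD, with the group sizes given above). In the dark they were 146.4 ± 9.61 at ZT0, 174.7 ± 4.92 at ZT1, 217.7 ± 17.8 at ZT3, 163.8 ± 13.6 at ZT7.5, 194.8 ± 20.8 at ZT11.5, 223.4 ± 7.88 at ZT13, 227.9 ± 42.9 at ZT15 and 194.3 ± 21.6 at ZT18. The dark mean at ZT3 was close to those of the night.

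Errfi1 and Zbtb16 are the members that passed in neither arm by limma. Errfi1 ran from 18.4 to 61.6 and Zbtb16 from 14.3 to 65.2 over all libraries, on medians of 45 and 34 reads. Their highest group means, Light ZT1 for Errfi1 and Light ZT15 for Zbtb16, were 1.73 and 2.11 times the lowest. In the order of the 15 group means, all 14 neighbouring groups of each of the 8 genes overlapped in their library values, so the exact order has no support from the spread.

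A pair of contrasts set ZT11.5 against an earlier and a later time. In light, ZT11.5 against ZT3 gave 0 of 8 genes called by limma, edgeR and DESeq2, against 0.342% of all genes by limma. There 7 of 8 differences were positive and 5 of the 8 genes had an unadjusted p under 0.05, against 1141 of all genes, and the median difference was 0.45 on the log2 scale, against 0.00 for all genes. In the dark, 4 of 8 genes were called, all higher at ZT11.5, against 1.77% of all genes called and 1.05% called higher. Sgk1 averaged 498 ± 90 at ZT11.5 and 208 ± 23 at ZT3 (n = 4 each), a log2 difference of 1.25 (SE 0.24, adjusted p = 0.0019). Plin4 averaged 20.47 ± 6.8 at ZT11.5 and 3.33 ± 2.53 at ZT3 (2.42, SE 0.51, adjusted p = 0.0041). Nfkbia averaged 251 ± 41.8 at ZT11.5 and 146 ± 11.6 at ZT3 (0.77, SE 0.16, adjusted p = 0.0036), and Tsc22d3 averaged 388 ± 63.1 at ZT11.5 and 247 ± 19.9 at ZT3 (0.64, SE 0.15, adjusted p = 0.011). For these 4 every ZT11.5 library lay above every ZT3 library, as for 4.88% of all genes. In light the same held for Sgk1, Tsc22d3, Ddit4 and Nfkbia, and for 2.98% of all genes. Ddit4 had a log2 difference of 0.67 (adjusted p = 0.069 by limma, 0.044 by edgeR and 0.035 by DESeq2). Without replicate 3 of Dark ZT11.5 the difference of Tsc22d3 was 0.55 (adjusted p = 0.087), and without replicate 1 of Dark ZT3 it was 0.59 (adjusted p = 0.053).

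Oligodendrocyte markers moved with this contrast. Mog, Mobp and Cnp, genes of myelinating cells, rose, and the sum of the marker list was 18290 to 21080 at Dark ZT11.5 against 13650 to 18880 at Dark ZT3. Thalamus markers, 4 genes, summed to 181 to 508 at Dark ZT11.5 against 178 to 349 at Dark ZT3, and choroid plexus markers to 301 to 20870 against 454 to 5580; their part in the result was not tested. With the mean log2 level of the markers as a term in the model, a fit added after the data were seen, 0 of the 8 genes were called in the dark contrast, against 0.105% of all genes. In that fit the log2 difference of Sgk1 was 1.197 (adjusted p = 0.15) and that of Nfkbia 0.69 (0.23), close to the values above, while Plin4 had 1.11 (0.59) and Tsc22d3 0.32 (0.61). At Dark ZT7.5 the summed oligodendrocyte markers were at 18940 to 21310, the range of Dark ZT11.5, so ZT11.5 was also set against ZT7.5. Single markers were not all level, since Mobp averaged 393 ± 66.6 at ZT11.5 and 289 ± 54.2 at ZT7.5, and Mog 427 ± 12.7 at ZT11.5 and 383 ± 56 at ZT7.5. That comparison, likewise added after the data were seen, called 4 of the 8 genes in the dark, all higher at ZT11.5, against 0.285% of all genes. They were Sgk1 (log2 difference 1.27, SE 0.24, adjusted p = 0.0076), Tsc22d3 (0.77, SE 0.15, 0.0076), Ddit4 (1.04, SE 0.20, 0.0076) and Plin4 (2.45, SE 0.51, 0.013), with Nfkbia at 0.63 (0.062). In light it called 0 of the 8 and 0% of all genes, and the difference of Sgk1 was 0.41 (SE 0.24, adjusted p = 0.64).

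The later fall was tested as ZT18 against ZT11.5. In light, 0 of 8 genes were called by limma, edgeR and DESeq2, against 0.076% of all genes by limma, with 848 of all genes and 1 of the 8, Plin4, at an unadjusted p under 0.05. In the dark, 4 of 8 were called, all lower at ZT18, against 5.88% of all genes called and 2.18% called lower. Sgk1 averaged 168 ± 13.9 at ZT18 and 498 ± 90 at ZT11.5 (log2 difference -1.55, SE 0.24, adjusted p = 7e-05). Ddit4 averaged 125 ± 25.5 at ZT18 and 225 ± 59.4 at ZT11.5 (-0.83, SE 0.20, adjusted p = 0.01), Nfkbia 143 ± 12.9 at ZT18 and 251 ± 41.8 at ZT11.5 (-0.80, SE 0.16, adjusted p = 0.0015), and Tsc22d3 270 ± 28.4 at ZT18 and 388 ± 63.1 at ZT11.5 (-0.52, SE 0.15, adjusted p = 0.028). For all 4, each ZT18 library lay below each ZT11.5 library, as it did for Errfi1 (30 ± 5.74 at ZT18 and 45.6 ± 4.68 at ZT11.5, -0.60, adjusted p = 0.11), and for 6.06% of all genes. Zbtb16 had no overlap the other way, with 35.93 ± 5.66 at ZT18 and 25.61 ± 7.62 at ZT11.5 (0.52, adjusted p = 0.21), as had 7.27% of all genes. Plin4 did not take part, with 20.2 ± 8.65 at ZT18 and 20.47 ± 6.8 at ZT11.5 (-0.07, SE 0.51, adjusted p = 0.95). Oligodendrocyte markers summed to 15230 to 22610 at Dark ZT18, and with their term the same 4 genes passed, among 718 of all genes. Of the Dark ZT18 libraries, replicates 1 and 4 are under 2 M reads, and without the 7 libraries under that depth only Sgk1 passed (-1.56, adjusted p = 0.0071), with Nfkbia at 0.092, Ddit4 at 0.12 and Tsc22d3 at 0.21. Ddit4 and Tsc22d3 also lost the call without replicate 3 of Dark ZT11.5 (adjusted p = 0.052 and 0.14), without its replicate 4 (0.056 and 0.078) and without replicate 1 of Dark ZT18 (0.062 and 0.051), and Tsc22d3 without replicate 4 of Dark ZT18 (0.0995).

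**Figure D2:**
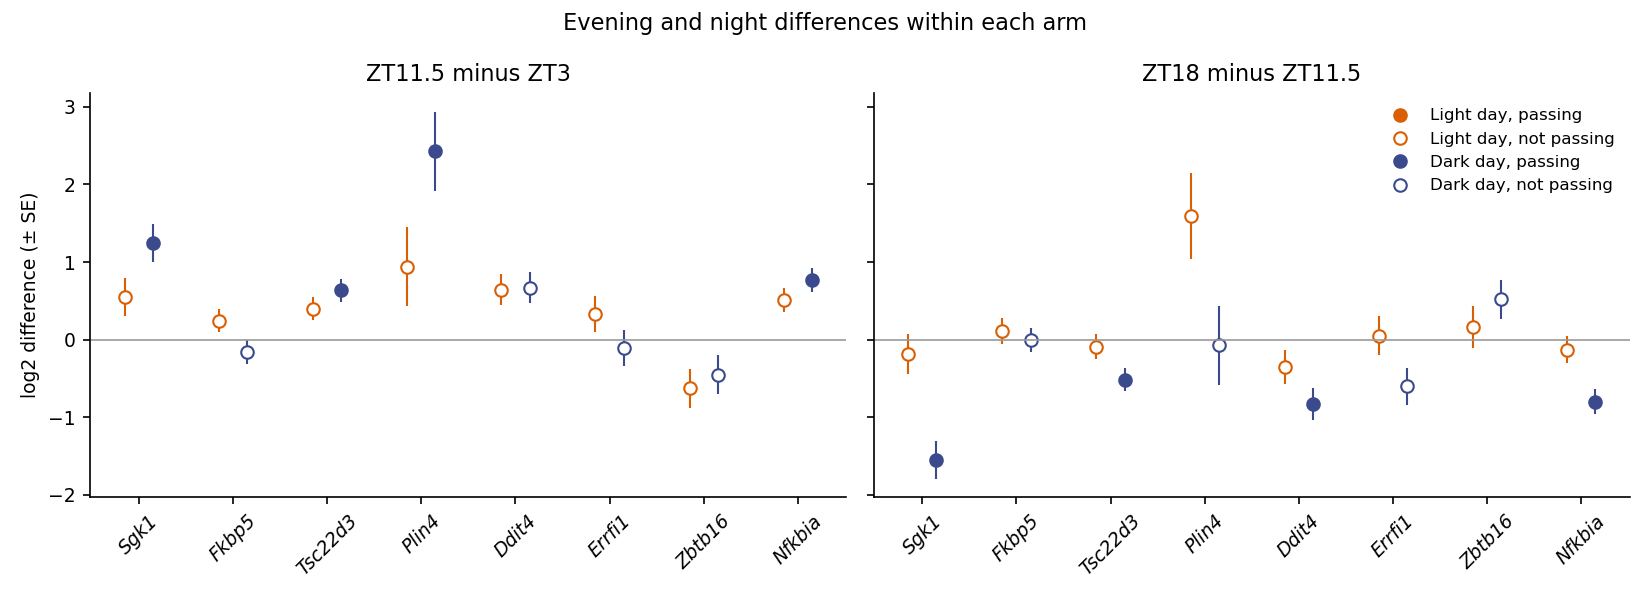
Log2 differences (y, ± SE from limma) of the 8 genes for ZT11.5 minus ZT3 (left) and ZT18 minus ZT11.5 (right), light day orange and dark day blue. Filled points passed an adjusted p of 0.05. In the dark, 4 genes are filled above 0 on the left and 4 below 0 on the right, and no light point is filled.

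Whether the rise differed between arms was tested directly. The ZT11.5 minus ZT3 difference in light minus that in dark was called for 0 of the 8 and for 0% of all genes by limma, and for 0 genes by edgeR and DESeq2, with 617 genes and 2 of the 8 at an unadjusted p under 0.05. Those were Plin4 (-1.49, SE 0.72, adjusted p = 0.84) and Sgk1 (-0.70, SE 0.34, adjusted p = 0.85). For Nfkbia it was -0.26 (SE 0.23) and for Tsc22d3 -0.24 (SE 0.21). A smaller rise in light was thus not established for any of the 8, and the test does not show that the rises were equal.

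A cosine of 24 h was fitted to each arm. It passed for 5 of the 8 in light, against 2.17% of all genes, and for 5 of the 8 in the dark, against 5.65%, by limma. Sampling ended at ZT18, so peak times hold under the assumed period. In light the estimated peaks were ZT12.9 ± 1.25 for Nfkbia (± SE; adjusted p = 0.041), 13.2 ± 0.873 for Ddit4 (0.0013), 14.8 ± 0.884 for Tsc22d3 (0.0012), 16.4 ± 0.971 for Fkbp5 (0.016) and 16.6 ± 0.58 for Plin4 (8.7e-05). In the dark they were 11.1 ± 0.659 for Sgk1 (adjusted p = 0.00017), 11.4 ± 0.63 for Nfkbia (4.6e-05), 13.3 ± 1.26 for Ddit4 (0.023), 13.8 ± 0.786 for Tsc22d3 (0.00014) and 15.7 ± 0.475 for Plin4 (2e-07). In both arms the estimate for Nfkbia came before those of Ddit4 and Tsc22d3, and that of Plin4 came last of those that passed, with neighbours often within 1 SE. Amplitudes, the rise from mean to peak, were 0.26 to 0.42 on the log2 scale for 4 genes in light and 0.35 to 0.60 for 4 in the dark. Plin4 had 1.55 ± 0.211 in light and 1.59 ± 0.17 in the dark. Sgk1 in light had an amplitude of 0.20 ± 0.097 (adjusted p = 0.46), and Fkbp5 in the dark 0.14 ± 0.048 (0.14). The call of Nfkbia in light was lost on leaving out any of 12 single libraries (adjusted p up to 0.0795), and the call of its change over the light day on leaving out any of 7 (up to 0.104). With the oligodendrocyte marker term, calls ended for Tsc22d3 (adjusted p = 0.058) and Ddit4 (0.12) in the dark and for Nfkbia in light (0.19), and Fkbp5 passed in the dark (0.020).

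**Figure D3:**
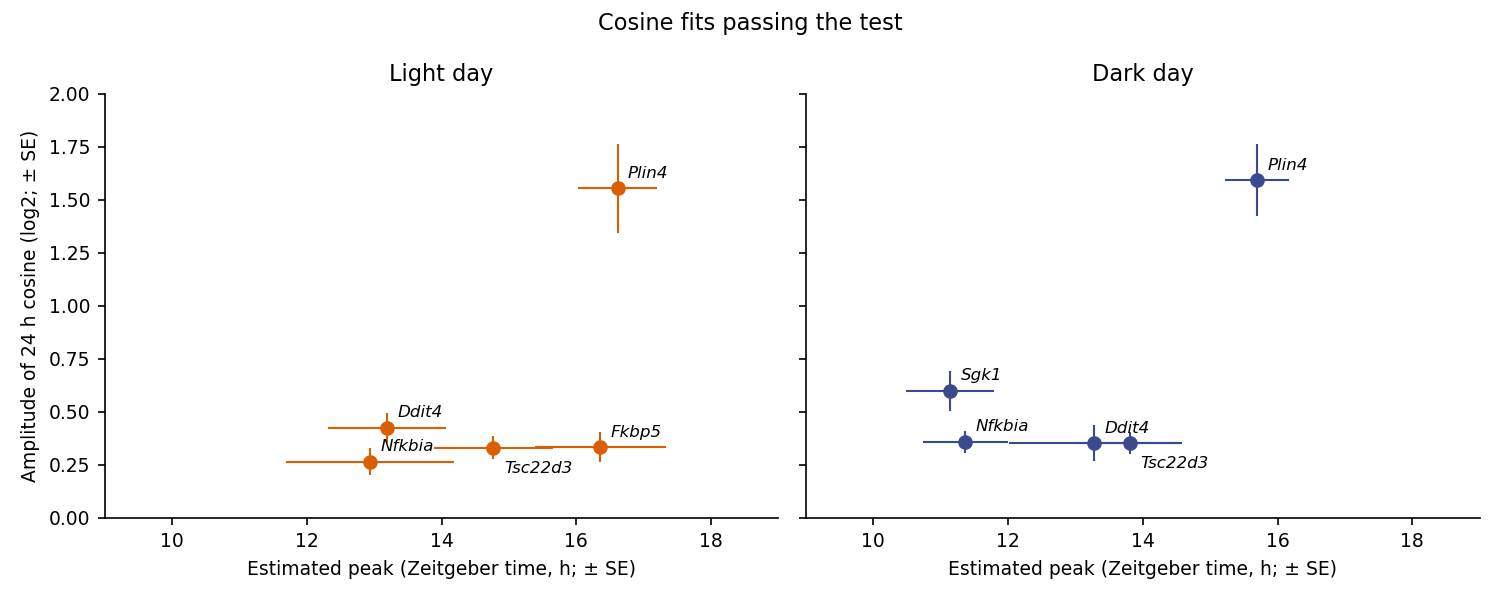
Amplitude of the fitted 24 h cosine (y, log2, ± SE) against estimated peak time (x, Zeitgeber time in hours, ± SE) for genes that passed, light day left and dark day right. Plin4 stands apart in amplitude in both arms, and Sgk1 and Nfkbia have the earliest peaks in the dark.

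The main comparison of the design, light against dark at the same time, gave no call among the 8 genes at any of 7 times by limma, edgeR or DESeq2. By limma the share of all genes called was 0.257% at ZT1, 0.124% at ZT3, 0% at ZT7.5, 0.152% at ZT11.5, 0.038% at ZT13, 0% at ZT15 and 0% at ZT18, with 464 to 964 genes at an unadjusted p under 0.05. Of the 56 values of the 8 genes, 6 had an unadjusted p under 0.05, and the smallest adjusted p was 0.18. At ZT1, where 10 of 11 immediate-early genes were higher in light, the 8 genes had differences of -0.24 to 0.84 and a median of 0.13, against 0.00 for all genes. Sgk1 was 217.6, 201.6, 280.6 and 245.5 in light and 176.1, 257.3 and 205.5 in dark libraries at that time, which overlap.

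The smallest p was that of Sgk1 at ZT11.5. It was 231.2, 240.2, 267.6 and 386.6 in light libraries and 429.7, 422.3, 527.0 and 612.3 in dark libraries, with a log2 difference of -0.83 (SE 0.24, adjusted p = 0.18 by limma, 0.14 by edgeR and 0.18 by DESeq2). All light libraries lay below all dark ones, and replicates 1 and 2 alone gave -0.85, replicates 3 and 4 alone -0.82. These are subsets of the libraries for which the smallest p was picked, so their likeness is no independent support for the difference. In a fit to the Light and Dark ZT11.5 groups alone Sgk1 passed (adjusted p = 0.029), among 15 of all genes. That fit used the same libraries again, and the main fit, edgeR and DESeq2 did not call the difference. Nfkbia also had all light libraries below all dark ones. It averaged 185 ± 21.6 in light and 251 ± 41.8 in the dark (-0.43, SE 0.16, adjusted p = 0.39). Within the replicate pairs, likewise subsets of the same libraries, it had -0.40 and -0.47. Groups of all genes that did not overlap made up 6.4% at ZT11.5. Tsc22d3 had -0.30 (adjusted p = 0.61) with overlap. Oligodendrocyte markers summed to 21010 to 23630 in light and 18290 to 21080 in the dark at this time, and with their term the difference of Sgk1 was -0.84 (adjusted p = 0.20). Immediate-early genes moved the other way, with 8 of 11 higher in light.

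Other non-overlapping groups among the 8 were Fkbp5 at ZT1 and ZT3 and Errfi1 at ZT18. Fkbp5 was 188.0, 153.5, 140.2 and 188.4 in light and 217.0, 241.8, 212.8 and 199.2 in dark libraries at ZT3 (-0.38, SE 0.15, adjusted p = 0.58), and 147.9 ± 7.22 in light and 174.7 ± 4.92 in the dark at ZT1 (-0.24, adjusted p = 1). Errfi1 was 46.12, 51.06 and 37.64 in light and 32.42, 23.3, 27.8 and 36.57 in dark libraries at ZT18 (0.57, SE 0.25, adjusted p = 0.47). The share of all genes without overlap was 5.58% at ZT1, 4.42% at ZT3 and 8.38% at ZT18. Errfi1 at ZT3 had the remaining p under 0.05 (-0.52, adjusted p = 0.65).

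**Figure D4:**
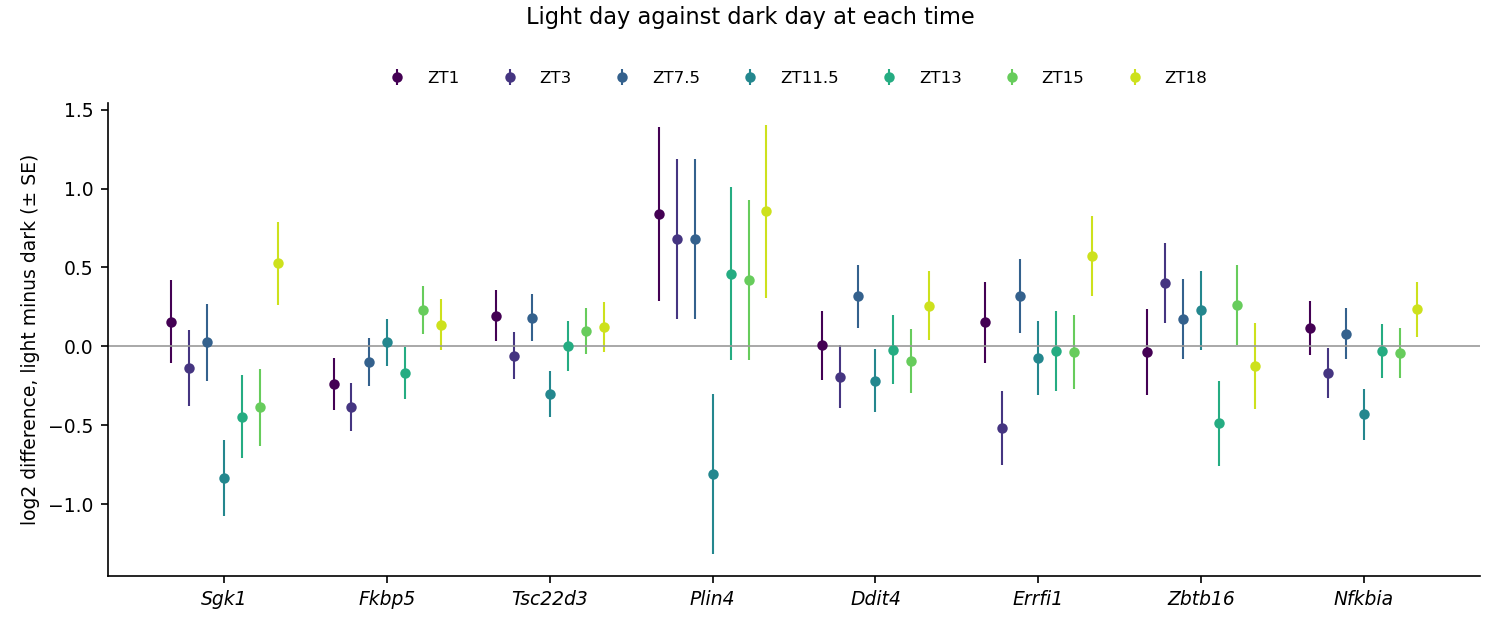
Log2 difference, light minus dark (y, ± SE from limma), of each of the 8 genes at the 7 shared times, from ZT1 (dark purple) to ZT18 (yellow). Sgk1 reaches -0.83 at ZT11.5 and Plin4 has the widest errors. None of the 56 values passed after adjustment.

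The hours around dawn and dusk showed no call for the 8 genes by limma, edgeR or DESeq2, with 596 to 1199 genes at an unadjusted p under 0.05 by limma. Light ZT1 against the shared Dark ZT0 baseline called 0 of 8 and 0.304% of all genes, and Dark ZT1 against Dark ZT0 called 0 of 8 and 0.057%. In the dark, Plin4 had 1.815, 4.839 and 0 at ZT1 and 2.457, 5.414, 10.98 and 4.259 at ZT0 (-1.27, SE 0.55, adjusted p = 0.47). At dusk, ZT13 against ZT11.5 called 0 of 8 in light against 0.257% of all genes, and 0 of 8 in the dark against 0.0095%. Zbtb16 in the dark had the smallest adjusted p there, with 42.61, 48.21 and 57.82 at ZT13 and 30.76, 29.67, 14.34 and 27.65 at ZT11.5 (0.97, SE 0.27, adjusted p = 0.21). Every ZT13 library lay above every ZT11.5 library for Zbtb16 and Fkbp5 in the dark, and for 4.32% of all genes. Replicates 2 and 3 of Dark ZT13 held 1.918 and 1.638 M reads, so comparisons with this group rest partly on shallow libraries.

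Other genes of the pathway were read from lists of 3 receptors and enzymes, 6 chaperones, 5 coregulators and 35 induced genes. These lists too were chosen with earlier results of these data known. The receptor Nr3c1 had group means from 270 ± 19.1 at Dark ZT11.5 to 354 ± 22.7 at Light ZT1. It was higher at Dark ZT18 (330 ± 6.6) than at Dark ZT11.5 (0.29, SE 0.08, adjusted p = 0.026), the reverse of Sgk1. In that contrast 390 of all genes were called higher. Nr3c1 changed over the dark day (adjusted p = 0.043). That call ended with the oligodendrocyte term (0.0729), in a fit to the dark groups alone (0.0724) and without the libraries under 2 M reads (0.13). The mineralocorticoid receptor Nr3c2, which binds the same hormone, had a mean of 5.14 and was not tested. Hsd11b1, which regenerates active hormone, was called in no comparison. Of 6 receptor chaperones, Hsp90aa1, Dnajb1 and Hspa8 changed over the dark day, against 6.52% of all genes. Dnajb1 and Hspa8 changed over the light day, against 3.81%. Of 5 coregulators, 0 changed over either day, which is near those shares.

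Of 35 further genes known to be induced by glucocorticoids, 28 were tested. Over the light day 8 changed, against 3.81% of all genes (Per1, Dusp1, Cdkn1a, Map3k6, Slc2a1, Hif3a, Sdc4 and Mfsd2a), and over the dark day 11 did, against 6.52% (Klf9, Klf15, Mt1, Mt2, Cdkn1a, Arrdc2, Slc2a1, Hif3a, Sdc4, Mfsd2a and Pnpla2). At Dark ZT11.5 against Dark ZT3, 6 rose and 1 fell, against 1.77% of all genes called. With the oligodendrocyte term Cdkn1a still passed (adjusted p = 0.0416), and the 6 that rose did not, the nearest being Slc2a1 (0.193). Arrdc2, an arrestin-domain gene, averaged 85.56 ± 13.9 at ZT11.5 and 39.55 ± 2.91 at ZT3 (1.08, SE 0.20, adjusted p = 0.0014), and Slc2a1, the glucose transporter of the blood-brain barrier, 546 ± 101 at ZT11.5 and 332 ± 23.5 at ZT3 (0.70, adjusted p = 0.0051). The others that rose were the metallothionein Mt2 (0.70, adjusted p = 0.0032), Hif3a (1.52, adjusted p = 0.011), the lysolipid transporter Mfsd2a (0.72, adjusted p = 0.019) and the lipase Pnpla2 (0.62, adjusted p = 0.014). Cdkn1a, a cell cycle inhibitor, fell to 51.8 ± 7.79 at ZT11.5, against 90.6 ± 8.1 at ZT3 (-0.81, adjusted p = 0.0026). Slc2a1 and Mfsd2a are also endothelial genes, and 5 endothelial markers summed to 489 to 565 at Dark ZT11.5 and 467 to 528 at Dark ZT3; their part in the result was not tested. Set against Dark ZT7.5 instead, 0 of these 7 passed, against 0.285% of all genes, with Slc2a1 at 0.61 (adjusted p = 0.054) and Arrdc2 at 0.78 (0.086).

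Per1, a clock gene that glucocorticoids and light both induce, parted from the 8. It was 389 ± 90.6 in light (n = 4) and 178 ± 14.6 in dark libraries (n = 3) at ZT1, a log2 difference of 1.09 (SE 0.19, adjusted p = 0.00031). Dusp1, a MAP kinase phosphatase and an immediate-early gene as well, was also higher in light then (1.63, adjusted p = 0.00025). They were the 2 of the 28 tested genes of the list that passed at that time.

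For each of the 6 genes that changed in at least 1 arm, the genes with the most similar 15 group means were sought. Pearson's r on the log2 scale was used, over tested genes with the members of the list left out of the ranking. For Sgk1 the closest was Rab12 (r = 0.907), for Fkbp5 Smim3 (0.868), for Tsc22d3 Slc2a1 (0.954), for Plin4 Mfsd2a (0.940), for Ddit4 Prmt1 (0.945) and for Nfkbia Plekhf1 (0.932). Slc2a1 was among the 3 closest of Tsc22d3, Ddit4 and Nfkbia, Net1 of Tsc22d3 and Ddit4, and Lfng of Sgk1 and Nfkbia. Between members the group means of Tsc22d3 and Ddit4 ran at r = 0.904 and those of Sgk1 and Nfkbia at 0.899, while Zbtb16 had 0.024 with Sgk1 and 0.006 with Nfkbia. These are descriptions over 15 means.

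Libraries of the same group could also differ together. Deviations from the group means, 57 in all, were correlated for the 28 pairs of the 8 genes, with deviations permuted within groups (100000 resamples, two-sided, adjusted over the 28 pairs). By Pearson's r 5 pairs passed and by Spearman's rho 4, and 22 of 28 r were above 0, with a median of 0.204. The same was not computed for pairs of other genes, so these counts are not shown to be particular to the 8. The 5 pairs were Sgk1 with Tsc22d3 (r = 0.585, rho = 0.582, permutation p = 0.0002 and 0.00022, adjusted p = 0.0056 and 0.0062), Tsc22d3 with Nfkbia (0.554, 0.524, permutation p = 0.00074 and 0.00098, adjusted p = 0.01 and 0.012) and Sgk1 with Nfkbia (0.630, 0.481, permutation p = 0.0026 and 0.0039, adjusted p = 0.024 and 0.027). Sgk1 with Plin4 had 0.383 and 0.462 (permutation p = 0.0061 and 0.0013, adjusted p = 0.038 and 0.012), and Sgk1 with Fkbp5 had 0.511 and 0.374 (permutation p = 0.0068 and 0.018, adjusted p = 0.038 and 0.086). Without the 2 libraries farthest from the median of the first gene named, r of these pairs was 0.594, 0.552, 0.580, 0.376 and 0.349 in the order given. In the light libraries alone r was 0.690, 0.627, 0.726, 0.377 and 0.667 in the same order. In the dark libraries alone it was 0.427, 0.450, 0.346, 0.421 and -0.032, so Sgk1 with Fkbp5 was near 0 there. Between replicates 1 and 2 alone (30 libraries) and between 3 and 4 alone (24), r was 0.254 and -0.012 for Sgk1 with Tsc22d3, 0.521 and -0.157 for Sgk1 with Nfkbia, and 0.462 and 0.591 for Tsc22d3 with Nfkbia. For Sgk1 with Plin4 it was 0.148 and 0.455, and for Sgk1 with Fkbp5 0.395 and 0.473. Here deviations were taken from the mean of the 2 libraries of a group, which are then mirror images and count as 1 independent value. No p-value was computed for these r. Those of Sgk1 with Tsc22d3 and with Nfkbia were below 0 within replicates 3 and 4.

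The Light ZT13 libraries stood apart. Replicates 1 and 2 there had Sgk1 at 507.7 and 569.6, Nfkbia at 264.3 and 346.3 and Tsc22d3 at 422.2 and 462.1. Replicates 3 and 4 had Sgk1 at 172.5 and 204.9, Nfkbia at 145.8 and 150.7 and Tsc22d3 at 311.1 and 308.0. Dark ZT13 libraries held Sgk1 at 508.3, 462.3 and 346.9, all above replicates 3 and 4. Their Nfkbia, at 213.6 to 221.2, lay between the 2 pairs. Their Tsc22d3 ran from 285.9, below replicates 3 and 4, to 450.9, above replicate 1. Xist was above 20 in all 4 Light ZT13 libraries. Oligodendrocyte markers summed to 17650, 18700, 18780 and 20980 in replicates 1 to 4, and choroid plexus markers to 2059, 152.8, 154.7 and 181.1. Other lists did separate the pairs. Excitatory neuron markers summed to 10070 and 10050 in replicates 1 and 2 and to 11370 and 12840 in 3 and 4, interneuron markers to 4134 and 4011 and to 3606 and 3624, microglia markers to 1037 and 1070 and to 1228 and 1397, and hippocampus markers to 246.6 and 290.2 and to 354 and 540.6. Their part in the split of the members was not tested. Without this group, an alternative added after the data were seen, only Sgk1 with Tsc22d3 passed (r = 0.499, permutation test, adjusted p = 0.045).

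**Figure D5:**
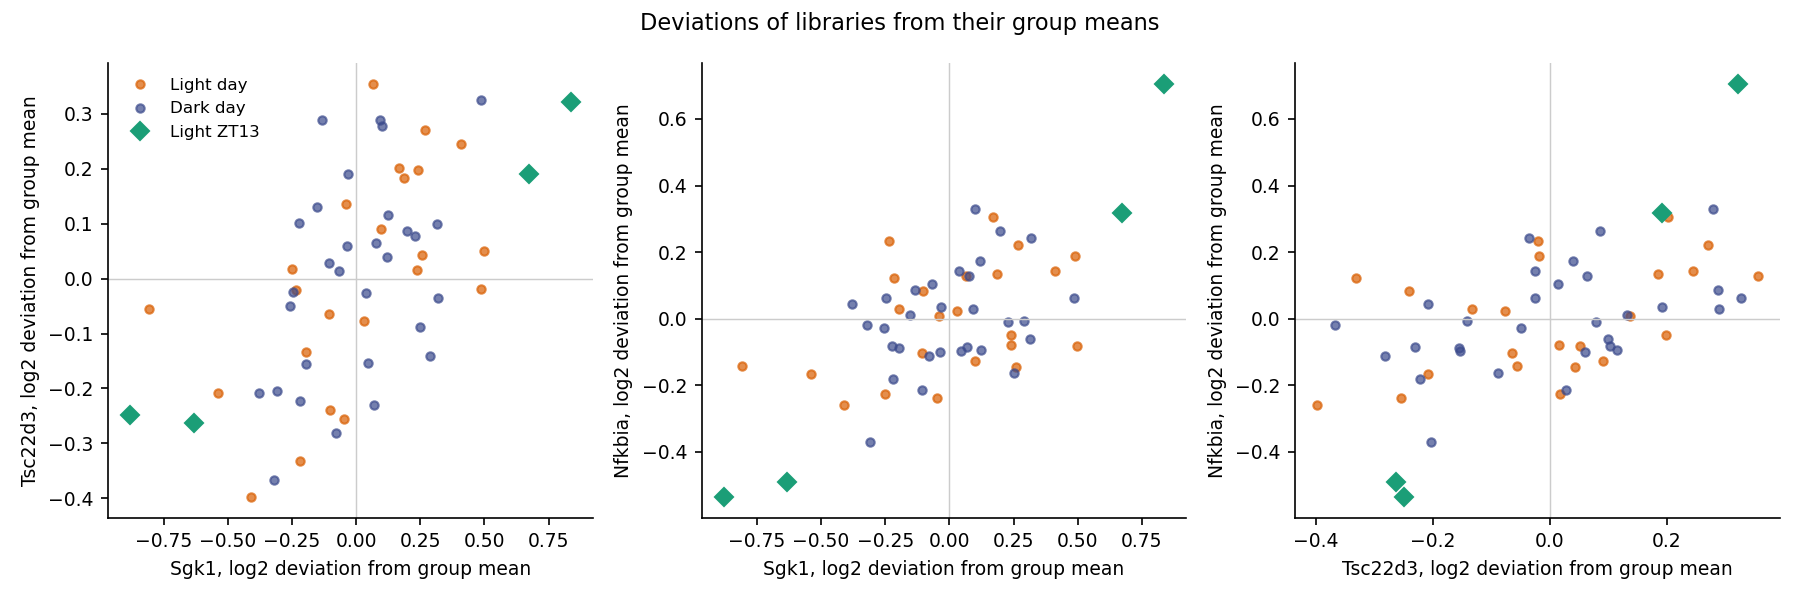
Deviation of each library from its group mean (log2) for 3 pairs of genes, with the first gene on x and the second on y. Light libraries are orange, dark libraries blue and the 4 Light ZT13 libraries green diamonds. For Sgk1 and Nfkbia these 4 lie at or near the ends of the range.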

How the data were processed

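Visual cortex RNA of 57 mouse samples was profiled by MARS-Seq. Per the submitters' processing notes, cutadapt, STAR 2.5.2b, DESeq2 and the build mm10 were used; the sources used here do not give the annotation, strand or handling of molecular identifiers. The authors deposited a signal table of counts divided by size factors, with 24421 rows, of which 27 with date-like names (0.294 to 0.363% of a library) were left out. Whole reads were recovered from it, with 100% of values within 0.01 of a whole number; on those reads edgeR 4.0.16 called 209 genes and DESeq2 1.42.0 called 228 in Dark ZT11.5 against Dark ZT3, where the main test called 186.

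The main test was limma 3.58.1 (R 4.3.3) on log2(value + 1), its prior variance following mean level,, for genes with a mean of at least 10, in 1 model of 15 groups, with Benjamini-Hochberg adjustment over 10526 genes and a threshold of 0.05. Differences are on that scale. Groups came from the sample labels. All 81 replicate pairs differed beyond sampling noise (chi-square per degree of freedom 2.05 to 6.39). Covariation used permutations of deviations within groups. Scripts were tested on simulated data. The 8 genes were named in every comparison, with other pathway genes named where they passed, and receptors and Per1 always. For members that changed, the 3 non-member genes of most similar group means were found. The members and lists were chosen with earlier results of these data known. The oligodendrocyte term, the ZT7.5 comparison and the covariation without Light ZT13 were chosen after seeing the data. Alternatives were other tools and scaling, filters, pseudocounts, fits to the compared groups alone, replicate terms, leaving out shallow libraries and leaving out each library.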

Additional observations from a re-analysis of the deposited data

Results flagged for a closer look

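Among 96 groups of 4 libraries, 2 held a value far from the other 3, where chance alone gives about 1 in 20. Sgk1 was 254 in replicate 1 of Dark ZT7.5, while the other 3 libraries lay between 185.4 and 192.8. Errfi1 was 21.5 in replicate 3 of Light ZT3, while the other 3 lay between 38.03 and 40.84.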

How the results depend on the processing

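The values below count members that passed. Fitting the compared groups alone gave 1 at Light against Dark ZT11.5, with 15 of all genes in place of 16. It gave 1 at Light ZT11.5 against Light ZT3, with 27 of all genes in place of 36. The main fit gave 0 members in both, and fewer samples enter these fits. With the oligodendrocyte term, Dark ZT11.5 against Dark ZT3 gave 0 in place of 4, and 11 of all genes in place of 186. Without libraries under 2 M reads, Dark ZT18 against Dark ZT11.5 gave 1 in place of 4, and 87 of all genes in place of 619. With no filter on low values, the rhythm in light gave 3 in place of 5, and 121 of all genes in place of 228. Without Light ZT13, covariation gave 1 pair in place of 5. The cause was not tested where the construction does not show it. Leaving out single libraries gave 3 to 5 for Dark ZT11.5 against Dark ZT3, 2 to 4 for Dark ZT18 against Dark ZT11.5, 5 to 7 for change over the dark day and 4 to 5 over the light day, 5 to 5 for the rhythm in the dark and 4 to 5 in light, 2 to 6 pairs for covariation, and 0 to 0 elsewhere. Covariation had 2 pairs without replicate 4 of Light ZT11.5, and 3 without replicate 4 of Dark ZT11.5, 1 of Dark ZT13, 1 of Dark ZT15, 4 of Light ZT3, 3 of Light ZT7.5, 2 or 3 of Light ZT13, 1 or 4 of Light ZT15, or 3 of Light ZT18. No direction of a called value reversed.

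Deviations of same-numbered libraries of different groups had a low mean correlation, 0.0209, against -0.00679 for other numbers. Of 57 libraries, 22 correlated best with their own number. No chance level was computed for these values, so whether same-numbered libraries paired was not tested. With the replicate block, 4 members passed in Dark ZT11.5 against Dark ZT3, 4 in Dark ZT18 against Dark ZT11.5, 7 over the dark day, 5 over the light day, 5 in each rhythm and 0 elsewhere. The term for replicates 3 and 4 gave the same counts of members. With it, 220, 830, 1028 and 529 of all genes were called in the first 4 of these comparisons. The dark rhythm had 611 and the light rhythm 330. The block gave 43 calls among all genes at Light ZT13 against Light ZT11.5, in place of 27. Low counts limit Plin4, Errfi1 and Zbtb16.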
